A study of Mus musculus with 27 samples.

Results

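The transcriptomes of SHMT2-expressing and control B cells were compared in a mouse model of B-cell lymphoma. The comparison uses the 6 RNA-seq libraries of the 27 samples of the series, chosen by their labelled assay, 3 from the vector group and 3 from the SHMT2 group. In both groups the starting cells were haematopoietic stem cells of VavPBcl2 mice, which carry the anti-apoptotic gene Bcl2 under a promoter of the Vav gene that is active in blood cells. The stem cells came from fetal liver (E13.5). They were infected with an empty vector (vector group) or with MSCV-SHMT2, a retroviral vector carrying SHMT2 (SHMT2 group), and were injected into irradiated wild-type mice. B220+ cells were then taken from the spleen, B220 being a form of the surface protein CD45 found on B cells. The donor cells of both groups therefore carry the Bcl2 transgene, and both kinds of library come from irradiated hosts. The labels do not give the number of mice, whether mice were pooled, the age at harvest, or whether the B220+ cells were separated from B cells of the host, and the p-values below therefore reflect the spread among these 6 samples alone, part of which may be technical.

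SHMT2 is the mitochondrial serine hydroxymethyltransferase. It splits serine into glycine and a one-carbon unit carried on tetrahydrofolate, and mitochondria export such units as formate for the synthesis of purines and thymidylate. One-carbon units are also needed inside mitochondria, where they serve the formylation of the first methionine of mitochondrially encoded proteins and a modification of mitochondrial tRNA. The comparison asks which genes, and which families of genes, differ in level between cells with and without the added enzyme. The spleen of an irradiated mouse is also a site of red blood cell formation, so its cell suspensions can contain erythroid precursors and the macrophages that feed on them.

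Values are TPM, a transcript abundance corrected for transcript length and scaled to the same total in every library. Of 23382 gene symbols listed, 11117 averaged 1 TPM or more and were tested on log2(TPM + 1). Levels of a gene are given in the order of replicates 1, 2 and 3 of each group. A fold change below is the SHMT2 mean minus the vector mean on that scale, ± its standard error (SE) from limma with 3 libraries in each group, and this scale understates the difference of genes with low TPM. The groups are said not to overlap for a gene when all 3 libraries of one group lie above all 3 of the other, and the gap is the distance between their nearest libraries on the same scale.

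Shmt2 itself, on chromosome 10, measured 174, 223 and 157 TPM in vector against 244, 345 and 259 TPM in SHMT2. The 3 SHMT2 libraries lay above the 3 vector libraries, and the groups did not overlap. Its fold change was 0.61 ± 0.19, with a limma adjusted p of 0.216 and a p of 0.1 in a two-sided exact permutation test, which cannot go lower with 3 libraries against 3. Between 10753 and 11306 genes reached 1 TPM in a library. Defining B-cell genes were abundant in all 6 libraries, and the 16 tested genes of the B-cell list summed to between 8982 and 11973 TPM. The vector libraries differed more from each other (Pearson correlations of 0.921 to 0.967 across genes) than the SHMT2 libraries did (0.987 to 0.993). Some levels are unusual for mouse B cells: Gapdh, a glycolytic enzyme usually among the most abundant transcripts, ranged from 1.80 to 4.70 TPM, and Hba-a1, Hba-a2, Hbb-b1 and Hbb-b2, genes of adult haemoglobin, were listed at 0 in all libraries. Sex markers differed within both groups: Xist, the RNA of the inactive X chromosome, measured 2461, 412 and 1635 TPM in vector against 30.5, 2.17 and 1625 TPM in SHMT2, while the Y-linked Ddx3y measured 0, 69.2 and 17.2 TPM in vector against 75.4, 50.3 and 7.96 TPM in SHMT2. Vector replicates 2 and 3 and SHMT2 replicates 1 and 3 had both markers above 5 TPM.

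No gene passed the test across all genes. With limma and an adjusted p under 0.05 as the threshold, 0 of 11117 genes (0%) were called, and the smallest adjusted p was 0.204. At an unadjusted p under 0.05, 1258 genes were higher and 600 lower in SHMT2. Without vector replicate 1, limma called 845 genes, 431 higher and 414 lower. This was the only library whose removal gave any call, and it left the pair of vector libraries with erythroid and macrophage RNA described below. The unadjusted counts were 1758 higher and 1586 lower without vector replicate 1, and 1135 and 441 when vector replicate 3 was left out. Leaving out SHMT2 replicate 1 gave 850 and 384, leaving out SHMT2 replicate 2 gave 747 and 374, and leaving out SHMT2 replicate 3 gave 624 and 222.

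The groups did not overlap for 1875 genes that were higher in SHMT2 (16.9% of those tested) and for 918 that were lower (8.26%). These shifts were small. The 1875 higher genes had a median fold change of 0.32 (interquartile range 0.23 to 0.43) and a median gap of 0.11, and the 918 lower genes a median of −0.35 (−0.54 to −0.24) and a median gap of 0.09. The gap exceeded 0.25 for 248 higher and 126 lower genes, 0.5 for 12 and 21, and 1 for 0 and 2. Large fold changes were mostly negative: 302 genes lay at or below −1 and 38 at or above 1, and the groups failed to overlap for 56 and 15 of them. Across all tested genes the median fold change was 0.02 (interquartile range −0.17 to 0.20), with 5918 genes above 0. The spread inside the groups differed, since the median SD of a gene was 0.211 over the vector libraries and 0.107 over the SHMT2 libraries.

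Expression classes differed in how often the groups failed to overlap. Among the 1450 genes with a mean of 1 to 3 TPM, 8.07% were higher and 8.69% lower without overlap, and the median fold change was −0.08. The share of higher genes was 14.6% of 2414 genes at 3 to 10 TPM, 18.9% of 3004 at 10 to 30, 19.7% of 2604 at 30 to 100, 18.6% of 1113 at 100 to 300, and 21.8% of 532 at 300 TPM and above. The lower shares in the same classes were 7.17%, 7.19%, 8.60%, 11.2% and 10.2%, and the medians lay between 0.01 and 0.06. The lowest class thus stood apart from the rest in having as many lower as higher genes, and it had the widest spread between vector libraries (median SD 0.32 against 0.18 to 0.24 in the other classes). The class at 300 TPM and above held 58.1% to 61.0% of all TPM in a library. Its most abundant members were partly uneven between vector libraries. Kdm6a, an X-linked histone demethylase gene, measured 21951, 6966 and 10133 TPM in vector against 5229, 5162 and 9529 TPM in SHMT2, and vector replicate 1 was far above the other 5 libraries. From highest to lowest, the libraries had the same order for Kdm6a as for Xist, and a link to sex was not tested. Sept6, which encodes a septin, was higher in every SHMT2 library, with 10103, 8315 and 9176 TPM in vector against 14157, 13775 and 14453 TPM in SHMT2 and a fold change of 0.62 ± 0.11.

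**Figure D1:**
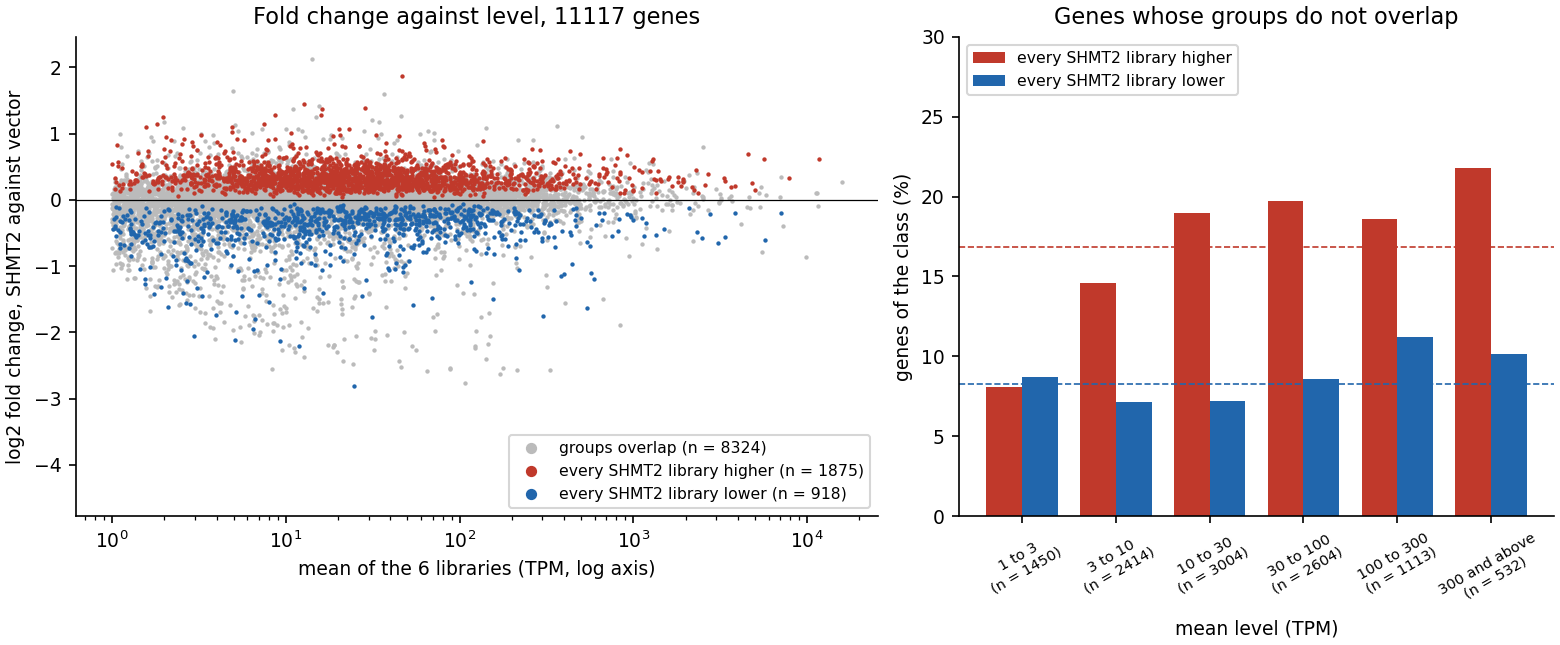
Left, mean of the 6 libraries (TPM, log axis) against the log2 fold change for the 11117 tested genes, with those whose groups do not overlap in red (1875 higher in SHMT2) or blue (918 lower), and right, the percent of such genes in each class of mean level, with dashed lines at 16.9% and 8.26% for all tested genes. Only in the class of 1 to 3 TPM is the bar of lower genes above that of higher genes.

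The genes with the widest gaps among those higher in SHMT2 and with a mean of at least 10 TPM covered several functions, and no limma adjusted p among them lay below 0.204. Tktl1, an X-linked transketolase-like gene, measured 29.7, 32.9 and 27 TPM in vector against 61.8, 52.1 and 64.5 TPM in SHMT2, a fold change of 0.97 ± 0.12. The lowest SHMT2 library was well above the highest vector library. Cotl1, a protein that binds filamentous actin, measured 358, 344 and 268 TPM in vector against 541, 533 and 533 TPM in SHMT2 (0.74 ± 0.12), and Tagln2, another actin-binding protein, measured 223, 199 and 157 TPM in vector against 340.5, 332 and 306 TPM in SHMT2 (0.77 ± 0.14). For both, the 3 SHMT2 libraries were close together and vector replicate 3 was the lowest. Fkbp4, a co-chaperone of steroid hormone receptors, measured 37.0, 36.2 and 30.5 TPM in vector against 59.8, 53.5 and 62.2 TPM in SHMT2 (0.74 ± 0.11). Fh1, the fumarase of the citric acid cycle, measured 37.2, 34.4 and 27.6 TPM in vector against 54.2, 52.0 and 62.0 TPM in SHMT2 (0.75 ± 0.14). Ndufs4, a subunit of respiratory complex I, measured 15, 15.2 and 14.9 TPM in vector against 23.3, 22.1 and 26.1 TPM in SHMT2 (0.63 ± 0.09). The vector libraries of Ndufs4 were nearly equal, so its difference, smaller than that of Fh1, stands against a smaller spread. Park7, which protects against oxidative stress, measured 30.7, 37.8 and 37.2 TPM in vector against 53.2, 54.1 and 52.8 TPM in SHMT2 (0.59 ± 0.10). Shfm1, now named Sem1, a small component of the proteasome lid, measured 38.4, 35.3 and 35.8 TPM in vector against 58.8, 53.9 and 57.3 TPM in SHMT2 (0.62 ± 0.08). Tomm7, part of the translocase of the outer mitochondrial membrane, measured 23.9, 22.5 and 22.9 TPM in vector against 37.2, 33.0 and 35.2 TPM in SHMT2 (0.58 ± 0.08). For each of these 3 genes the vector libraries lay within 0.5 log2 of each other and all SHMT2 libraries above them. Klhl13, an adaptor of a ubiquitin ligase, had a larger and less even difference: 21.6, 8.80 and 29.2 TPM in vector against 43.6, 60.5 and 117 TPM in SHMT2, a fold change of 1.87 ± 0.52. Both groups of Klhl13 were uneven, from 8.80 to 29.2 TPM in vector and from 43.6 to 117 TPM in SHMT2. Dynll1, a dynein light chain, measured 10.02, 9.62 and 8.24 TPM in vector against 15.6, 16.9 and 18.1 TPM in SHMT2 (0.80 ± 0.11), with SHMT2 libraries above all vector libraries.

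The genes lower in SHMT2 with the widest gaps also had different functions. Ctla4, an inhibitory receptor known from T cells, measured 51.2, 62.9 and 80.1 TPM in vector against 32.1, 25.2 and 31.8 TPM in SHMT2 (−1.08 ± 0.19). Tnfaip3, the gene of A20, a brake on NF-kB signalling that is lost in some B-cell lymphomas, measured 592, 755 and 997 TPM in vector against 413, 288 and 373 TPM in SHMT2 (−1.11 ± 0.23). Il20rb, a subunit of interleukin receptors, measured 43.5, 51.4 and 61.9 TPM in vector against 27.4, 28.2 and 19.9 TPM in SHMT2 (−1.03 ± 0.18). All 3 genes were highest in vector replicate 3 and lowest in SHMT2 replicates 2 or 3, without overlap. Fbxl20, an F-box adaptor, measured 72.2, 82.4 and 92.7 TPM in vector against 48.2, 49.2 and 48.3 TPM in SHMT2 (−0.74 ± 0.11) and Rbm33, an RNA-binding protein, 70.3, 74.3 and 78.1 TPM in vector against 49.0, 48.4 and 43.4 TPM in SHMT2 (−0.65 ± 0.09). Jund, an AP-1 transcription factor, measured 238, 318 and 255 TPM in vector against 186, 166 and 178 TPM in SHMT2 (−0.60 ± 0.13). In Fbxl20 and Rbm33 the vector libraries lay within 0.5 log2 of each other. F8, the X-linked gene of coagulation factor VIII, measured 188, 58.4 and 72.1 TPM in vector against 30.3, 30.4 and 36.8 TPM in SHMT2 (−1.49 ± 0.43), with vector replicate 1 well above the other vector libraries. Mlxip, a glucose-responsive transcription factor, measured 325, 643 and 648 TPM in vector against 241, 241 and 213 TPM in SHMT2 (−1.14 ± 0.28), and Sepp1, now named Selenop, the selenium carrier of plasma, 40.4, 64.8 and 68.6 TPM in vector against 27.2, 25.6 and 27.4 TPM in SHMT2 (−1.05 ± 0.21). Nlgn3, an X-linked adhesion protein of synapses, measured 24.0, 90.8 and 36.4 TPM in vector against 15.3, 13.9 and 7.89 TPM in SHMT2 (−1.77 ± 0.50). For all of these genes except F8, the vector libraries with erythroid and macrophage RNA included the highest value. With that RNA as a covariate, in the fit described further on, the fold changes of Mlxip, Sepp1 and Nlgn3 were −0.69, −0.73 and −1.03. Without vector replicates 2 and 3 they were −0.49, −0.58 and −0.95. Ctla4, Il20rb, Fbxl20, Rbm33 and Jund also moved towards 0, to −0.90, −0.90, −0.64, −0.61 and −0.44 with the covariate. Without vector replicates 2 and 3 these 5 genes had −0.77, −0.78, −0.56, −0.57 and −0.43. The gap passed 1 for 2 genes, both at low level: 2210403K04Rik, now named Mir22hg, measured 8.60, 9.64 and 7.72 TPM in vector against 2.64, 2.11 and 2.83 TPM in SHMT2 (−1.45 ± 0.14), and 1700112E06Rik, now named Lrmda, measured 5.68, 11.3 and 9.31 TPM in vector against 2.24, 2.24 and 0 TPM in SHMT2 (−2.11 ± 0.52).

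Genes were next grouped into 45 families by symbol. Those described here were picked because the share of their members with non-overlapping groups was at least 2 times that of all tested genes, or because they had at least 60 tested members, so their counts are descriptions. Every member of the mitochondrial ribosome, 76 of 76 tested genes, had a fold change above 0, against 5918 of all 11117 genes. Energy metabolism in mitochondria was the common feature of several families with a high median: 28 of 36 complex I genes, 12 of 15 ATP synthase genes and 12 of 20 complex III and IV genes were higher without overlap (77.8%, 80% and 60%, against 16.9% of all tested genes). None of the genes in these 3 families was lower without overlap, against 8.26% of all. The shares of 16.9% higher and 8.26% lower are also the background for the family counts in the paragraphs that follow. They cover genes of every level and span, and the share of higher genes was larger among short genes (24.5% under 5 kb). Families were not compared with genes of like level and span. All members were measured in the same 6 libraries, and limma called none of them.

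**Figure D2:**
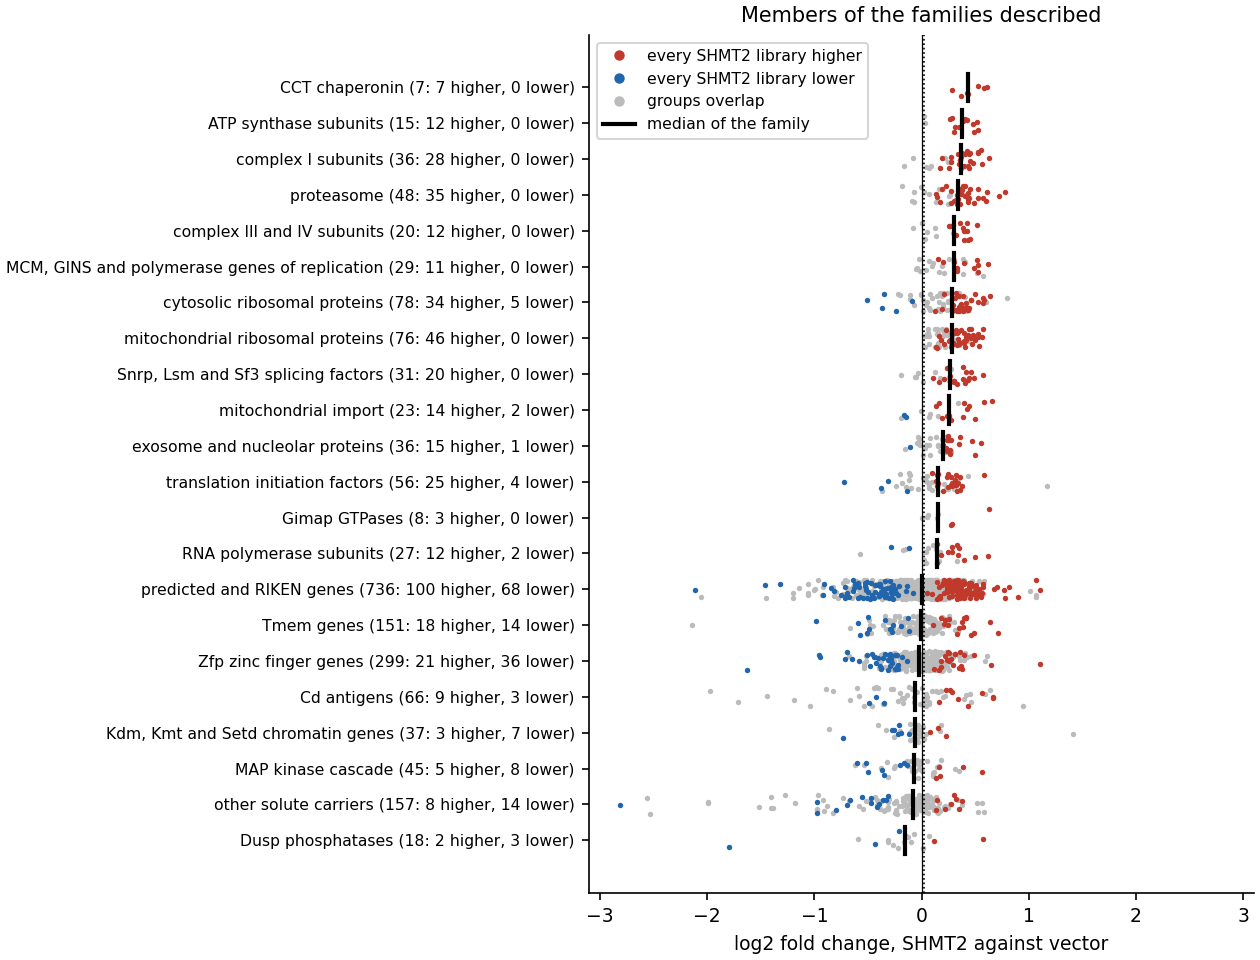
Log2 fold change (x axis) of every tested member (points) of the described families, ordered by the family median (black bar), with members in red or blue where the groups do not overlap and the median of all tested genes (0.02) as a dotted line. CCT chaperonin, ATP synthase and complex I are at the top with no member lower without overlap, and Dusp phosphatases are at the bottom with a median of −0.15.

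The respiratory chain moves electrons to oxygen through complexes I, III and IV, and the ATP synthase uses the proton gradient they build. Complex I genes had a median fold change of 0.37, and the medians of the SHMT2 mean against vector replicates 1, 2 and 3 were 0.33, 0.37 and 0.39. Ndufa2, an accessory subunit, measured 35.7, 32.9 and 36.1 TPM in vector against 49.98, 46.9 and 46.9 TPM in SHMT2 (0.45 ± 0.08), with tight and separate groups. The lowest fold change of the family was that of Ndufb4, at −0.16. ATP synthase genes had a median of 0.38 (0.27, 0.39 and 0.43 against the 3 vector libraries). They include Atp5sl, now named Dmac2, which matches the symbol pattern only by its older name and had the lowest fold change, 0.02. Atp5o, a subunit of the stalk, measured 74.4, 78.8 and 72.3 TPM in vector against 112, 102 and 101 TPM in SHMT2 (0.48 ± 0.08), and Atp5a1, the alpha subunit and the most abundant member, measured 1500.3, 1346 and 1396 TPM in vector against 1785, 1781 and 1842 TPM in SHMT2 (0.35 ± 0.08). In both, every SHMT2 library lay above every vector library. Complex III and IV genes had a median of 0.31, and Cox6b1, a subunit of cytochrome c oxidase, measured 81.0, 67.4 and 71.6 TPM in vector against 111, 103 and 102 TPM in SHMT2 (0.52 ± 0.10). Summed over the family, complex I genes held 2405, 2353 and 2838 TPM in vector against 3219, 2911 and 3058 TPM in SHMT2.

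The mitochondrial ribosome makes the respiratory subunits encoded by mitochondrial DNA. Its 76 genes, all in the nucleus, had a median of 0.28, and 46 were higher and 0 lower without overlap. The medians against vector replicates 1, 2 and 3 were 0.23, 0.34 and 0.29. Mrps16 of the small subunit had the highest fold change: 23.0, 20.003 and 21.8 TPM in vector against 33.1, 31.2 and 33.6 TPM in SHMT2 (0.58 ± 0.09). Mrps14, also of the small subunit, measured 73.0, 65.7 and 67.4 TPM in vector against 99.9, 99.5 and 101 TPM in SHMT2 (0.54 ± 0.08). The 3 SHMT2 libraries of Mrps14 were nearly equal. The lowest member, Mrpl37, had 0.03. The sum of the family was 2405, 2095 and 2227 TPM in vector against 2666, 2757 and 2783 TPM in SHMT2. Genes of protein import into mitochondria had a median of 0.25, with 14 of 23 higher and 2 lower without overlap. Timm13, an intermembrane-space chaperone, measured 46.5, 37.4 and 36.7 TPM in vector against 63.3, 66.9 and 60.7 TPM in SHMT2 (0.66 ± 0.11). The 2 lower genes were Tomm34 and Tomm20.

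Protein synthesis in the cytosol was represented by 78 ribosomal protein genes, with a median of 0.29 and 34 higher and 5 lower without overlap. The medians against vector replicates 1, 2 and 3 were 0.31, 0.32 and 0.19. The SHMT2 libraries were uneven too: replicates 1, 2 and 3 had medians of 0.14, −0.12 and −0.03 from their own mean. Many ribosomal protein genes have near-identical processed pseudogenes, so their single levels are uncertain where the counting could split reads, which was not tested. The family divided by level: of 30 members with a mean of at least 100 TPM, 18 were higher and 0 lower, with a median of 0.35. Of 21 members at 10 to 100 TPM, 13 were higher and 0 lower. Of 27 members under 10 TPM, 3 were higher and 5 lower, with a median of 0.07. The 5 lower genes were Rpl28, Rpl23a, Rpl24, Rpl36 and Rpl17, and Rpl24 measured 3.28, 2.85 and 3.01 TPM in vector against 1.77, 2.28 and 1.5 TPM in SHMT2 (−0.51 ± 0.15). Rpl22, of the large subunit, measured 606, 557 and 728 TPM in vector against 1048, 883 and 998 TPM in SHMT2 (0.64 ± 0.13). Levels of a few TPM are unusual for genes of the ribosome. Translation initiation factors had a median of 0.16 with 25 of 56 higher and 4 lower. Eif1ax, which takes part in start codon selection, measured 1117, 978 and 996 TPM in vector against 1637, 1472 and 1522 TPM in SHMT2 (0.58 ± 0.09). The lower members were Eif5, Eif2ak1, a kinase that inhibits initiation when haem is short, and the Argonaute genes Eif2c1 and Eif2c2, which match the symbol pattern only by their older names. Eif2ak1 measured 52.7, 101 and 51.5 TPM in vector against 35.6, 40.1 and 41.0 TPM in SHMT2 (−0.73 ± 0.27), with vector replicate 2 the highest.

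Protein folding and degradation followed the same direction. The CCT chaperonin folds actin and tubulin in the cytosol, and all 7 tested subunits were higher in SHMT2 without overlap, with a median of 0.44, the highest of the described families. Cct5, the most abundant, measured 5030.4, 4297 and 4159.9 TPM in vector against 7080.1, 6492 and 6950.4 TPM in SHMT2 (0.61 ± 0.11), and the summed level was 5874, 5080 and 4905 TPM in vector against 8167, 7468 and 8006 TPM in SHMT2. The proteasome is the protease that degrades ubiquitin-tagged proteins, and 35 of its 48 genes were higher and 0 lower, with a median of 0.34. Psmb4, a subunit of the core, measured 46.7, 44.9 and 42.3 TPM in vector against 59.4, 61.4 and 60.6 TPM in SHMT2 (0.43 ± 0.08). Psmb10, an interferon-inducible catalytic subunit of the immunoproteasome, measured 70.2, 46.6 and 45.2 TPM in vector against 91.2, 90.6 and 91.6 TPM in SHMT2 (0.77 ± 0.18), the largest fold change of the family. The groups were apart for both, and vector replicate 1 was the vector library nearest to SHMT2. Psme3, a proteasome activator, had the lowest fold change of the family, with vector replicate 2 far above the rest at 146, 299 and 161 TPM in vector against 161, 176 and 168 TPM in SHMT2. Its groups overlapped.

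RNA processing and DNA replication genes were also higher on the whole, with less even distances. Snrp, Lsm and Sf3 splicing factors had a median of 0.27 and 20 of 31 higher without overlap. Exosome and nucleolar proteins had 15 of 36 higher and 1 lower, with a median of 0.20, and RNA polymerase subunits 12 of 27 higher and 2 lower, with a median of 0.15. In these families vector replicate 1 was nearer to the SHMT2 mean than vector replicate 2. MCM, GINS and polymerase genes of replication had a median of 0.31 with 11 of 29 higher and 0 lower, and here the vector libraries differed from each other: the medians against replicates 1, 2 and 3 were 0.09, 0.23 and 0.55. Pold1, the catalytic subunit of DNA polymerase delta, measured 99.4, 105 and 75.9 TPM in vector against 144, 127 and 129 TPM in SHMT2 (0.52 ± 0.14). Gins2, of the replicative helicase, measured 4.23, 4.79 and 1.95 TPM in vector against 5.90, 5.76 and 5.95 TPM in SHMT2 (0.62 ± 0.26), and vector replicate 3 held the lowest level of both. Gimap GTPases of lymphocytes had 3 of 8 higher and 0 lower (37.5% and 0%, against 16.9% and 8.26% of all tested genes), with a median of 0.15.

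Some of the described families had more lower than higher members without overlap. Kdm, Kmt and Setd genes, which encode histone methyltransferases and demethylases, had 7 of 37 lower and 3 higher without overlap, with a median of −0.06. The lower members were Kdm5b, Setd7, Mll5, Mll3, Jhdm1d, Kdm5a and Setd1a. Mll3, a methyltransferase of enhancers now named Kmt2c, measured 138, 145 and 143 TPM in vector against 118, 126 and 122 TPM in SHMT2 (−0.22 ± 0.07), a narrow difference with even groups. MAP kinase cascade genes had 8 of 45 lower and 5 higher (median −0.07) and Dusp phosphatases, which switch MAP kinases off, 3 of 18 lower and 2 higher (median −0.15). Dusp1 measured 350.1, 288 and 302 TPM in vector against 262, 167 and 281 TPM in SHMT2 (−0.43 ± 0.21). The shares in these 3 families were 8.11% higher and 18.9% lower for the chromatin genes, 11.1% and 17.8% for the MAP kinases, and 11.1% and 16.7% for the Dusp genes, against 16.9% and 8.26% of all tested genes. The cytosolic and mitochondrial ribosomal protein families also had at least 60 tested members, with 43.6% and 60.5% higher. The other families of that size had fewer higher genes than that background, and lower genes near it or on either side of it. Of 299 Zfp zinc finger genes, 21 were higher (7.02%) and 36 lower (12%), and of 157 solute carriers outside mitochondria, 8 (5.10%) and 14 (8.92%). Of 151 Tmem genes, 18 were higher (11.9%) and 14 lower (9.27%), and of 66 Cd antigens, 9 (13.6%) and 3 (4.55%). Of 736 predicted and RIKEN genes, 100 were higher (13.6%) and 68 lower (9.24%). The Cd antigens included Ms4a1, the gene of CD20, with 297, 146 and 221 TPM in vector against 344, 339.5 and 389 TPM in SHMT2 (0.75 ± 0.25), for which vector replicate 2 was lowest and vector replicate 1 was nearest to SHMT2.

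The promoters of these families were read for short motifs in a window from 250 bases before to 50 bases after the annotated start, available from RefSeq (GRCm38.p6) for 8919 of the tested genes (80.2%). The motifs were those known as E-box, NRF1, ETS, E2F, NF-kB, GATA, CCAAT box, GC box and TATA box. The letters CCGGAAGT, the core bound by ETS factors, searched on both strands, were found in 9.23% of the tested promoters and in 4% of all 27025 RefSeq promoters. They occurred in 14.0% (218 of 1553) of genes higher in SHMT2 without overlap and in 8.60% (64 of 744) of those lower. For every other motif, the share in the higher genes lay nearer to its share of tested promoters. The CCAAT box had 41.9% against 39.1%, the E-box 11.1% against 10.6%, and the GC box 64.6% against 65.2%. By family the ETS letters were found in 19.5% (8 of 41) of proteasome promoters and 3.13% (1 of 32) of complex I promoters. Among ribosomal protein promoters they were found in 19.0% (11 of 58) of cytosolic and 16.4% (11 of 67) of mitochondrial ones. The members higher without overlap include Psmd6, a lid subunit of the proteasome, Cct8 of the chaperonin, Rpl37 of the cytosolic ribosome and Mrpl3 of the mitochondrial ribosome. Their 120 bases before the start are printed on the strand of the gene, 5′ to 3′, to show where the letters lie, with the letters in capitals. They were chosen after their values were seen. Psmd6 is at chr14:14120946-14121065 (minus strand), Cct8 at chr16:87495870-87495989 (minus strand), Rpl37 at chr15:5116493-5116612 (plus strand) and Mrpl3 at chr9:105053148-105053267 (plus strand).
Psmd6: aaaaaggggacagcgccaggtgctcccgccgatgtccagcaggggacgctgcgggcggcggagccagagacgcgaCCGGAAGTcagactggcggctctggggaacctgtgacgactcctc
Cct8: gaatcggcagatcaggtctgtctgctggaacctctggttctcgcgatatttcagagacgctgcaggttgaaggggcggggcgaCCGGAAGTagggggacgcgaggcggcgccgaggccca
Rpl37: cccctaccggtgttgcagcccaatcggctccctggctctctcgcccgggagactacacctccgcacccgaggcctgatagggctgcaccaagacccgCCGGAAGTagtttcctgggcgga
Mrpl3: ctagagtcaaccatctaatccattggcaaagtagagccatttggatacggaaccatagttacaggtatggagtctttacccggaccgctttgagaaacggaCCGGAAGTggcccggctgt
The letters lie within the last 50 bases before the start in all 4. In other matching promoters of these families they lie farther out, as in Rps18 (75 bases) and Psmc2 (85 bases). Psmd6 measured 44.7, 54.6 and 54.2 TPM in vector against 68.3, 64.0 and 65.8 TPM in SHMT2 (0.37 ± 0.10), and Rpl37 881, 784 and 852 TPM in vector against 1369, 1042 and 1164 TPM in SHMT2 (0.50 ± 0.12). A match of letters is a description of the sequence and shows no binding.

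The direction of the shifts also varied with the length of the gene on the chromosome, which was known for 11054 of the tested genes (99.4%). Of 1330 genes spanning under 5 kb, 24.5% were higher and 6.09% lower without overlap. Of 2212 genes spanning 50 to 150 kb, 8.77% were higher and 13.0% lower, and of 649 genes of 150 kb and more, 6.63% and 10.0%. The median fold change went from 0.10 under 5 kb, through 0.07, 0.02 and −0.05 in the bins between, to −0.07 at 150 kb and more. Short genes were thus more often higher in SHMT2 and long genes more often lower. Within the classes of level from 3 TPM up, the share of higher genes was 18.8% to 37.7% under 5 kb and 7.49% to 11.3% at 50 to 150 kb. In the class of 1 to 3 TPM the shares were closer, at 8.81% higher and 8.47% lower under 5 kb and 7.37% and 11.1% at 50 to 150 kb, and the medians were below 0 in every bin. The longest bin did not always continue the order: at 10 to 30 TPM the median was −0.03 at 50 to 150 kb and 0.01 at 150 kb and above, and at 300 TPM and above 9.68% of the 31 longest genes were higher and as many lower. The 1875 higher genes had a median span of 14.8 kb and the 918 lower genes one of 35.3 kb. Among gene types, 38 of 222 long non-coding RNA genes (17.1%) were lower without overlap and 9 (4.05%) higher, with a median of −0.14. By chromosome, the share of higher genes ran from 12.3% on chromosome 15, where 11.1% were lower, to 24.4% on chromosome 19, where 5.08% were lower. The pattern by chromosome and by type was not tested apart from span. The vector libraries showed the span pattern to different degrees: against the mean of the SHMT2 libraries, genes under 5 kb had medians of −0.145, −0.089 and −0.078 in vector replicates 1, 2 and 3, and genes of 150 kb and more had 0.046, −0.011 and 0.115. The part of the families above in this pattern was not tested.

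**Figure D3:**
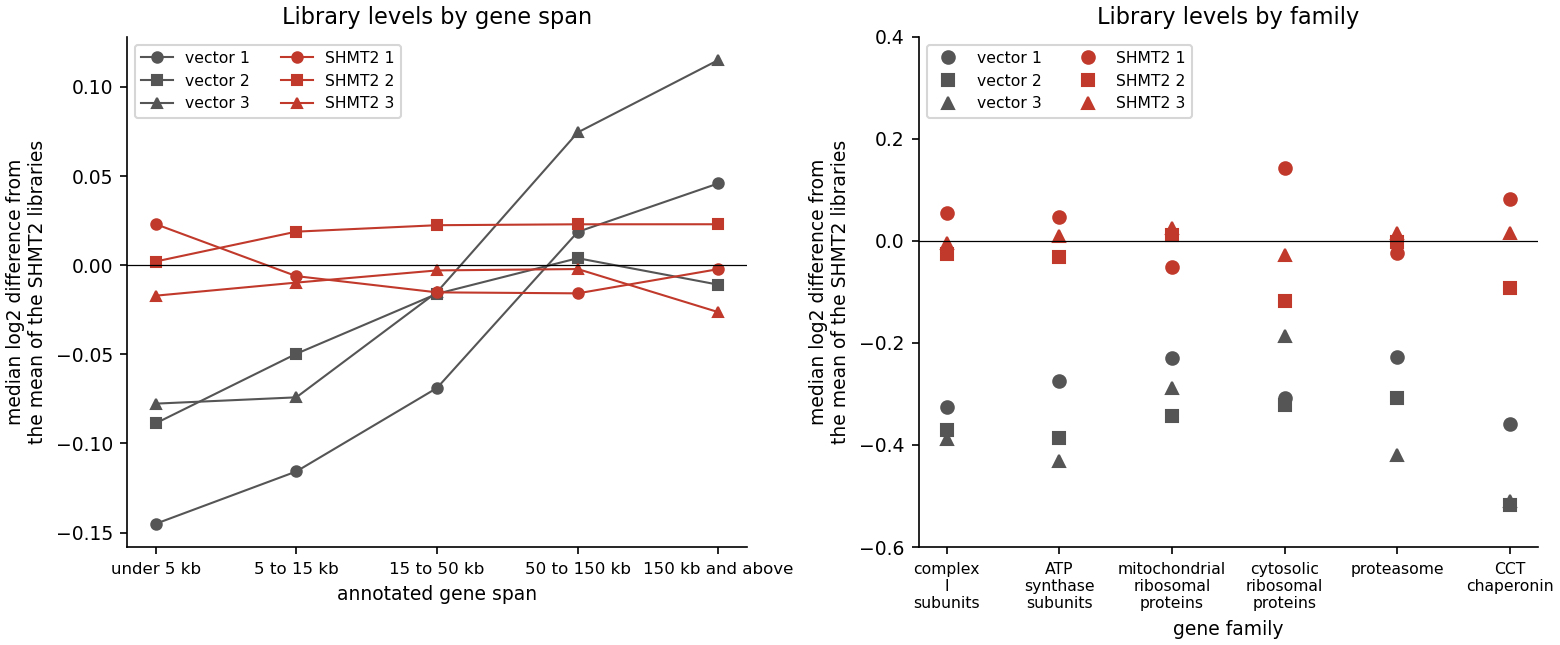
Median log2 difference of each library (3 vector in grey, 3 SHMT2 in red) from the mean of the SHMT2 libraries, by annotated gene span (left) and for 6 gene families (right). The SHMT2 libraries lie near 0 by construction because the reference is their own mean, the vector libraries lie below 0 for all 6 families, and vector replicate 1 goes from −0.145 under 5 kb to 0.046 at 150 kb and above.

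Vector replicates 2 and 3 had higher levels of genes that mark erythroid cells, macrophages and neutrophils. All 21 tested genes of 26 on the erythroid list lay in both of these libraries above the other 4, 20 of them by more than 1 on the log2 scale. Gata1, the master transcription factor of the erythroid lineage, measured 10.9, 1006 and 190.4 TPM in vector against 33.7, 9.98 and 27.5 TPM in SHMT2. Slc4a1, the anion exchanger of the red cell membrane, measured 19.9, 1573 and 292 TPM in vector against 42.3, 20.5 and 49.4 TPM in SHMT2. Vector replicate 2 was highest for both, vector replicate 3 was intermediate, and vector replicate 1 lay with the SHMT2 libraries. Alas2, the first enzyme of haem synthesis in erythroid cells, measured 7.81, 297 and 79.9 TPM in vector against 17.7, 6.24 and 25 TPM in SHMT2. The summed level of the list was 205, 9343 and 2014 TPM in vector against 443, 167 and 534 TPM in SHMT2. The symbols Hba-a1, Hba-a2, Hbb-b1 and Hbb-b2 were at 0 in all libraries, but Hbb-bs, the beta globin gene listed under the older symbol Beta-s, measured 112, 3381 and 879 TPM in vector against 249, 82.3 and 321 TPM in SHMT2. In bulk libraries such as these, a lower number of cells of a type cannot be told apart from less RNA in each cell.

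Macrophage genes differed in the same 2 libraries. Of 24 genes listed, 23 were tested, 21 lay above the other 4 libraries in both, and 18 by more than 1. Cd5l, a secreted protein of tissue macrophages, measured 9.90, 86.3 and 70.3 TPM in vector against 8.67, 13.1 and 7.24 TPM in SHMT2, and Slc40a1, the iron exporter ferroportin, 29.0, 297 and 162 TPM in vector against 37.0, 73.8 and 26.7 TPM in SHMT2. Spic, the transcription factor of splenic red pulp macrophages, measured 4.18, 39.4 and 42.8 TPM in vector against 5.54, 7.91 and 5.29 TPM in SHMT2. Cd5l and Spic were at similar levels in vector replicates 2 and 3, and Slc40a1 was higher in replicate 2. The mean log2(TPM + 1) over the list was 3.09, 5.47 and 5.37 in the vector libraries and 3.59, 3.81 and 3.26 in the SHMT2 libraries. Summed TPM separated the libraries less, at 1621, 3277 and 2926 in the vector libraries and 2186, 2158 and 1421 in the SHMT2 libraries, because Apoe holds most of it with 1376, 1742 and 1582 TPM in vector against 1767, 1714 and 1099 TPM in SHMT2. Lyz2, the lysozyme of myeloid cells, was highest in SHMT2 replicate 1, at 79.4, 128 and 125 TPM in vector against 171, 120.2 and 128 TPM in SHMT2. Neutrophil genes were also higher in vector replicates 2 and 3, in 8 of 9 tested members and in 4 by more than 1, with sums of 202, 3825 and 2568 TPM in vector against 1287, 250 and 367 TPM in SHMT2. Other lists followed these 2 libraries less: 2 of 13 T-cell, 4 of 8 NK-cell, 3 of 7 dendritic and 0 of 8 plasma cell genes did so. B-cell genes summed to 11909, 9600 and 8982 TPM in vector against 11973, 11731 and 11709 TPM in SHMT2, so vector replicates 2 and 3 had the lowest sums of B-cell genes.

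**Figure D4:**
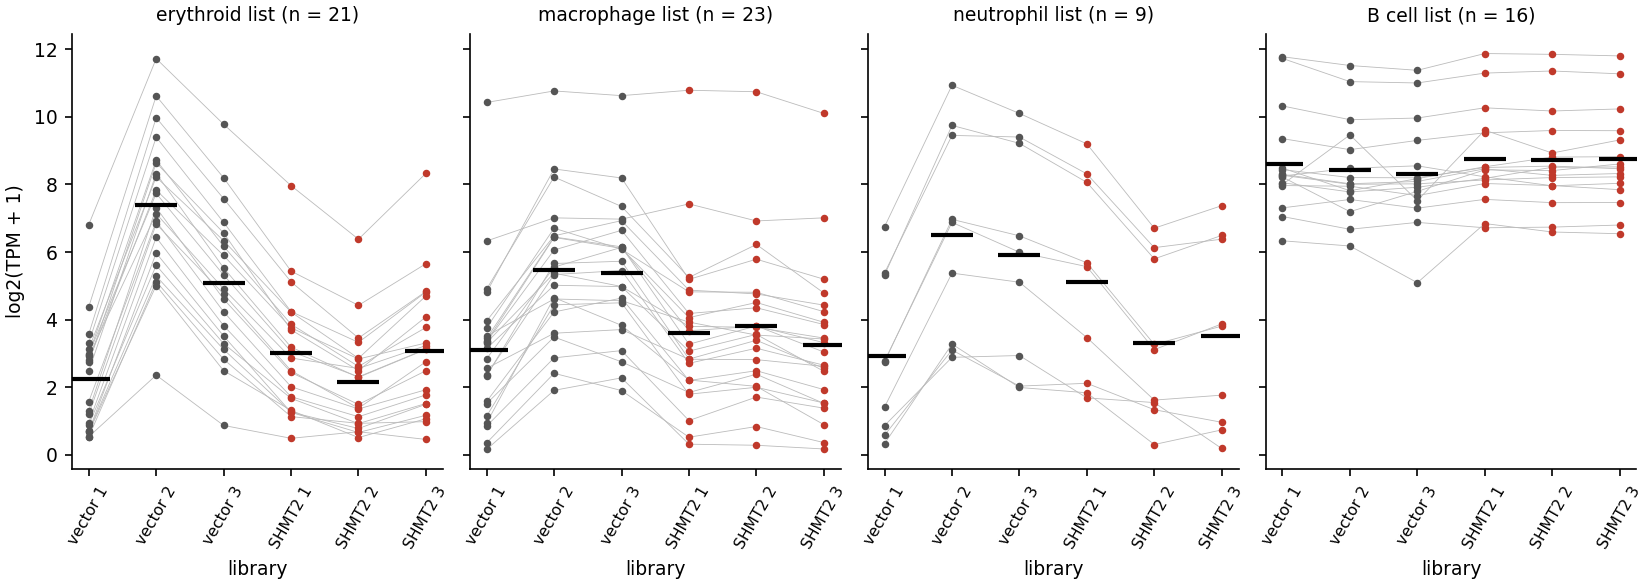
Level (log2(TPM + 1), y axis) of the tested genes (points joined by lines) of the erythroid, macrophage, neutrophil and B-cell lists in each of the 6 libraries. Black bars are list means, which for the erythroid genes are 7.39 and 5.08 in vector replicates 2 and 3 and 2.16 to 3.08 in the other 4 libraries.

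The promoters of erythroid genes illustrate the sequence that GATA1 recognises. The letters AGATAA, searched on both strands in the same window, were found in 60% (9 of 15) of the erythroid promoters with RefSeq sequence, in 6.26% of tested genes and in 11.4% of all RefSeq promoters, and in 0 of 15 macrophage promoters. The 120 bases before the start are printed on the strand of the gene, 5′ to 3′, for Alas2 at chrX:150547297-150547416 (plus strand), Kel, a blood group antigen, at chr6:41704326-41704445 (minus strand), and Epor, the erythropoietin receptor, at chr9:21963577-21963696 (minus strand), with the motif or its reverse complement in capitals. These were chosen after their values were seen.
Alas2: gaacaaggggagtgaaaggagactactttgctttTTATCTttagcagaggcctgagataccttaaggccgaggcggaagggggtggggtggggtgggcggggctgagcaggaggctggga
Kel: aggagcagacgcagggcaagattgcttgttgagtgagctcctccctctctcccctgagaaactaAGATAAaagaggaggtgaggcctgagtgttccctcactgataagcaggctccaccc
Epor: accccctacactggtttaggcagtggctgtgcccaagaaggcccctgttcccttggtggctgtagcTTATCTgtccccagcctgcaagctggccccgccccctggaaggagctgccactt
Kel measured 1.47, 158 and 23.4 TPM in vector against 4.42, 1.81 and 4.61 TPM in SHMT2 and Epor 0.445, 34.0 and 6.10 TPM in vector against 1.19, 0.909 and 0.976 TPM in SHMT2, in both cases with vector replicate 2 highest and vector replicate 3 next. Where the letters were not found, they are only absent from the window.

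Genes outside both lists followed the same 2 libraries. In all, 245 genes (with erythroid and macrophage list members among them) exceeded each of the other 4 libraries by more than 1 log2 unit in both vector replicates 2 and 3, and 16 lay below them by as much. Slc38a5, a glutamine transporter, measured 14.2, 809 and 173 TPM in vector against 24.3, 20.6 and 19.4 TPM in SHMT2, and Tmcc2, a membrane protein, measured 11.1, 775 and 184 TPM in vector against 20.4, 10.36 and 29.6 TPM in SHMT2. Both resembled the erythroid genes in being highest in vector replicate 2. C6, a complement component, measured 22.9, 348 and 277 TPM in vector against 28.6, 31.1 and 23.6 TPM in SHMT2, Ccr3, a chemokine receptor, 26.8, 325 and 290.0 TPM in vector against 23.8, 52.2 and 31.6 TPM in SHMT2, and Siglec1, the sialoadhesin of macrophages, 1.49, 17.7 and 16.0 TPM in vector against 0.801, 2.01 and 1.26 TPM in SHMT2. These were at similar levels in vector replicates 2 and 3, as the macrophage genes were. The 245 genes together held 0.236%, 3.07% and 1.52% of all TPM in vector against 0.389%, 0.286% and 0.319% in SHMT2, and 207 of them stand on neither list. Their share of the genes tested was 3.66% in the class of 1 to 3 TPM, 1.11% at 30 to 100 TPM and 1.69% at 300 TPM and above. On the low side, Hspa1b, a heat-inducible chaperone whose level is uncertain since Hspa1a is nearly identical, measured 19.2, 2.31 and 0.476 TPM in vector against 21.0, 10.5 and 31.7 TPM in SHMT2, Ada, adenosine deaminase, 83.7, 24.9 and 32.5 TPM in vector against 75.6, 89.8 and 89.3 TPM in SHMT2, and Cep55, needed for the last step of cell division, 9.39, 2.63 and 3.28 TPM in vector against 11.5, 12.7 and 12.7 TPM in SHMT2. Bcat1, which breaks down branched-chain amino acids, measured 57.6, 19.9 and 19.4 TPM in vector against 55.1, 53.8 and 46.9 TPM in SHMT2. For Hspa1b, Ada and Bcat1 vector replicate 1 lay within or above the range of the SHMT2 libraries, and for Cep55 it lay below all 3, so that its groups did not overlap.

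The large negative fold changes lay mostly in genes that were highest in vector replicates 2 and 3. Of 302 genes with a fold change of −1 or below, 278 (92.1%) had both of these libraries above the other 4 by any margin. Among all tested genes, 2025 (18.2%) did. High levels in 2 of the 3 vector libraries lower the fold change by themselves, so a high share follows in part from the selection. When the mean log2 level of the erythroid and macrophage lists was added to the fit as a covariate, 21 of the 302 kept a fold change of −1 or below and 96 changed sign. Against vector replicate 1 alone, 19 kept it and 212 changed sign. Of 38 genes at 1 or above, 10 kept that size with the covariate and 4 changed sign, and 12 kept it against vector replicate 1 alone and 6 changed sign. The erythroid list went from a median of −2.21 to 0.06 with the covariate and 0.48 without vector replicates 2 and 3, and the macrophage list from −1.19 to 0.00 and 0.52. The lists define the covariate, so their own values near 0 follow from it.

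**Figure D5:**
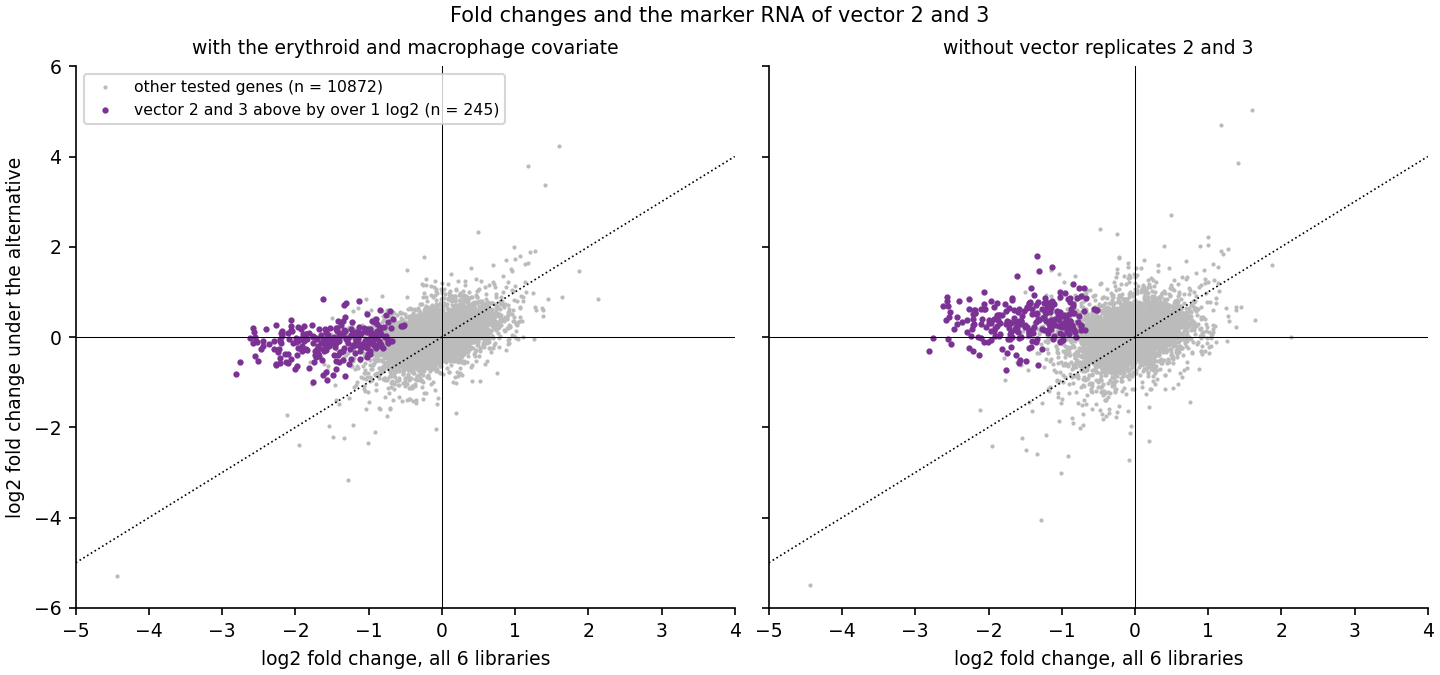
Log2 fold change over all 6 libraries (x axis) against that with the erythroid and macrophage covariate (left, y axis) or without vector replicates 2 and 3 (right, y axis) for the tested genes, with equality as a dotted line. The 245 genes that are over 1 log2 unit higher in both vector replicates 2 and 3, in purple, have a median of −1.44 on the x axis, and of −0.08 (left) and 0.35 (right) on the y axes.

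Single genes moved by different amounts. Slc6a20a, an amino acid transporter, measured 3.10, 113 and 25.4 TPM in vector against 2.04, 2.04 and 2.89 TPM in SHMT2, and its fold change went from −2.81 to −0.81 with the covariate. Zfp36l2, which promotes the decay of AU-rich mRNA, measured 303, 929 and 1301 TPM in vector against 223, 210.2 and 263 TPM in SHMT2, with −1.63 and −0.83. Ctse, the protease cathepsin E, measured 35.5, 147 and 72.3 TPM in vector against 23.6, 25.5 and 21.4 TPM in SHMT2, with −1.59 and −0.76. Vector replicate 1 of Zfp36l2 and Ctse also lay above the SHMT2 libraries. F8 went the other way, from −1.49 to −2.23, and its highest library was vector replicate 1, where the joint mean of the erythroid and macrophage lists was lowest. Tmc3, a channel-like gene, was also highest in vector replicate 1: it measured 111, 4.0 and 9.42 TPM in vector against 20.3, 15.7 and 12.8 TPM in SHMT2, and its fold change went from −0.09 to −2.04. Limma called no gene with the joint covariate (1004 genes were higher and 589 lower at an unadjusted p under 0.05).

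Among the families described above, those of mitochondria, ribosomes and protein quality control had positive medians in all 3 fits. Mitochondrial carriers, outside that selection, had −0.01 over all libraries, −0.01 with the covariate and 0.02 without vector replicates 2 and 3. The median of complex I genes was 0.37 over all libraries, 0.33 with the covariate and 0.33 without vector replicates 2 and 3. The corresponding medians were 0.28, 0.24 and 0.23 for the mitochondrial ribosome, 0.44, 0.40 and 0.36 for the CCT chaperonin, 0.29, 0.32 and 0.31 for cytosolic ribosomal proteins, and 0.34, 0.29 and 0.23 for the proteasome. Of the 76 mitochondrial ribosomal genes, 74 were above 0 with the covariate and 72 without vector replicates 2 and 3. The mitochondrial ribosome and the chaperonin thus had lower medians in both other fits, and the cytosolic ribosome higher ones. Splicing factors went from 0.27 to 0.18 and 0.14, and replication genes from 0.31 to 0.23 and 0.09. Families with a median below 0 over all libraries differed in direction. Dusp phosphatases went from −0.15 to −0.02 and 0.05, MAP kinases from −0.07 to 0.03 and 0.04, and Cd antigens from −0.06 to 0.17 and 0.23, whereas Kdm, Kmt and Setd genes went from −0.06 to −0.09 and −0.12. Dusp, MAP kinase and Cd antigen medians were thus above 0 without vector replicates 2 and 3, and that of the chromatin genes was further below 0. The B-cell list had a median of 0.22 over all libraries and of 0.13 and 0.06 in the other fits. Of its 16 members, 7 were higher and 1 lower without overlap (43.8% and 6.25%, against 16.9% and 8.26% of all tested genes). Without vector replicates 2 and 3 the vector group is 1 library, so its spread is taken from the SHMT2 libraries.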

How the data were processed

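RNA of B220+ cells from the vector and SHMT2 groups was extracted with TRIZOL and made into libraries with a TruSeq stranded mRNA kit, per the labels. The authors deposited TPM values, 1 table of 23382 gene symbols per library. STAR and mm10 are named in the submitters' processing notes, and the sources used here give neither the tool that made the TPM nor its use of strand. Sequencing depth cannot be read from TPM, so no counting error is given.

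Genes that averaged 1 TPM or more were tested on log2(TPM + 1) with limma 3.58.1 (R 4.3.3, empirical Bayes with trend, Benjamini-Hochberg adjustment over 11117 genes), without a block. Shmt2 also had an exact permutation test. The fit was tested on simulated data. Symbols were matched to RefSeq GRCm38.p6: 20916 directly, 2188 as older symbols, 278 not. Promoter sequences are from RefSeq. The members of families and the 11 marker lists (143 genes, 141 found, 116 tested) and the rules for named genes were chosen with earlier results of these data known. Named genes are Shmt2, those with the widest gaps among all genes, by level class and among genes with even vector libraries, the extreme and most abundant family members, the markers with the widest range, the genes most apart in vector replicates 2 and 3 or most moved by the covariate, and the 10 most abundant. Lower Rpl, Eif, Tomm and Kdm family members, Gapdh, the globin genes, Spic, Apoe, Lyz2 and the genes with printed promoters were added after their values were seen. In all, 20 alternatives were run. The other 21 samples of the series were not analysed here.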

Additional observations from a re-analysis of the deposited data

How the results depend on the processing

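Limma called 0 genes in the main analysis (1258 higher and 600 lower at an unadjusted p under 0.05) and under 17 of 20 alternatives. Leaving out 1 library at a time gave 0 to 845 calls, 624 to 1758 higher and 222 to 1586 lower genes at an unadjusted p under 0.05, and 2138 to 2913 higher and 1041 to 2457 lower genes without overlap, counts that can only grow with fewer libraries. All 845 calls came without vector replicate 1. The macrophage covariate alone gave 1 call, F8, and 798 higher genes at an unadjusted p. Without vector replicates 2 and 3 there were 6 calls, Maoa higher and Amhr2, Cnih2, Dip2b, F8 and Ftsj2 lower, and 4806 higher and 2752 lower genes without overlap. Array weights gave 1437 lower genes at an unadjusted p, against 1820 higher; the cause was not tested. With the replicate number as a block, limma called 0 genes, with 794 higher and 386 lower at an unadjusted p. The labels do not say that the numbers pair the libraries. The deviations of same-numbered libraries from their group means correlate at −0.417, −0.332 and −0.058. These values cannot show whether libraries were paired, because the vector deviations include the erythroid and macrophage RNA of vector replicates 2 and 3. The fold change of Shmt2 lay between 0.46 and 0.75, and its adjusted p between 0.0929 and 0.649, so it never passed the threshold. Higher genes made up 67.1% of those without overlap, and 61.6% after centring on library medians. Of 3902 values of the 198 other named genes, 153 had the opposite sign, in 59 genes, and 100 passed the threshold. Of 1873 medians of classes, families, lists and chromosomes, 152 had the opposite sign. The number of libraries and the unknown depth limit the precision of low levels.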

Other observations

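Families outside those described above gave the following values, as descriptions beside 16.9% higher and 8.26% lower over all tested genes. Chaperones of the DnaJ and Hsp families had 15 of 58 members higher and 1 lower without overlap, with a median fold change of 0.14, and aminoacyl-tRNA synthetases had 10 of 34 higher and 1 lower, with a median of 0.11. Subunits of the V-ATPase, the proton pump of lysosomes, had 5 of 15 higher and 0 lower (median 0.17). Histone genes had a median of 0.25 with 4 of 29 higher and 1 lower, although vector replicate 2 lay at the level of the SHMT2 libraries. Genes for microRNAs and small nucleolar RNAs had 0 of 45 higher and 7 lower, with a median of −0.14, in libraries made with a kit for mRNA. F-box genes had 2 of 48 higher and 7 lower, with a median of −0.05. Mitochondrial carriers had 7 of 35 higher and 2 lower, with a median of −0.01, unlike the mitochondrial families described above.

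Genes of immune signalling had different medians in the fits with and without vector replicates 2 and 3. Chemokines and their receptors had a median of −0.24 over all libraries, 0.17 with the erythroid and macrophage covariate and 0.36 without vector replicates 2 and 3. Interleukins and their receptors had −0.22 over all libraries and −0.06 with the covariate. Interferon-induced genes had 0.07, 0.16 and 0.21 in the same 3 fits, and MHC genes 0.16 over all libraries and 0.02 with the covariate. Within the SHMT2 group, replicate 1 was the highest for neutrophil, T-cell, NK-cell, dendritic and plasma cell lists. Its mean log2(TPM + 1) for the T-cell and plasma cell lists, 3.77 and 6.82, was also the highest of all 6 libraries.

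Some genes stood apart in vector replicate 1 alone, and these were looked at after the calls without vector replicates 2 and 3 were seen. Dip2b measured 911, 247 and 254 TPM in vector against 234, 237 and 232 TPM in SHMT2, Ftsj2 51.3, 7.31 and 8.19 TPM in vector against 8.03, 7.06 and 7.22 TPM in SHMT2 and Amhr2 22.6, 0.442 and 0.208 TPM in vector against 0.306, 0.700 and 0.289 TPM in SHMT2. In each of these 3 genes the other 2 vector libraries lay near the level of the SHMT2 libraries.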
